A study of Homo sapiens with 6 samples.

Results

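Nuclear copies of mitochondrial genes are stretches of mitochondrial DNA that were inserted into the chromosomes of the nucleus, and they carry symbols such as MTCO1P12 or MTRNR2L8 after the gene they came from. They were taken by symbol (MTND, MTCO, MTATP, MTCYB or MTRNR at the start) from a table of 60612 genes, which held 415 of them. The 32 that reached 1 FPKM (fragments per kilobase of gene, scaled to the depth of the library) in at least 3 of 6 libraries are described here, and 13984 genes of the table met the same level. Of the other 383 copies, 311 were listed at 0 in every library and 72 had some signal. The level rule read the expression values of both groups together, so levels are given as a description. MTND4P35 and MTCO1P2 lay just inside it, with a third-highest value of 1.19 and 2.22 FPKM, and MTND6P3 and MTRNR2L4 just outside, with 0.762 and 0.696 FPKM.

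RNA came from SH-SY5Y, a human neuroblastoma cell line, in 2 groups of 3 libraries: cells infected with a control vector (titled stuffer) and cells labelled for overexpression of CDKN2B-AS1, a long noncoding RNA. The labels give neither the promoter nor the time of treatment, nor, for the overexpression group, how it was delivered, and the groups' columns carry the tags LVx1 and LVx2, which no label explains. Separate cultures are not mentioned in the labels, and p-values therefore reflect only the variation among these libraries, possibly technical. The targeted gene, CDKN2B-AS1, stood at 0.338, 0.304 and 0.353 FPKM where overexpression was labelled. With control vector it stood at 0.272, 0.288 and 0.191 FPKM, so it lay under 1 FPKM in every library. The exact two-sided permutation p was 0.1, the smallest that 3 against 3 libraries allow. Fitted beside the tested genes, its log2 fold change was 0.15 (SE 0.29, limma-trend, Benjamini-Hochberg adjusted p = 0.834). Overexpression is thus known from the labels only, and directions below are those of the labels. Of 10 listed markers of adrenergic neuroblastoma 9 were tested, TH being listed at 0 in all but 2 libraries, and their summed level was 1129 to 1278 FPKM in control vector and 1196 to 1286 FPKM in labelled overexpression libraries. Immune and epithelial markers summed to at most 1.58 and 0.944 FPKM, glial markers to at most 6.92 FPKM, and fibroblast markers to 16.4 to 29.1 and 22.2 to 28.7 FPKM in the groups in that order.

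Mitochondrial DNA encodes core subunits of the respiratory chain, the ribosomal RNAs of the mitochondrial ribosome and a set of transfer RNAs. It is transcribed as long precursors that are then cut, largely at the transfer RNAs, and most messenger RNA genes lie on one strand while ND6 lies on the other. Since the genetic code differs between the compartments, most inserted genes cannot give the mitochondrial protein. The MTRNR2L genes are copies of MT-RNR2, the 16S ribosomal RNA, which also holds the reading frame of humanin, a short peptide studied for its protection of neurons. The table used here held 0 genes of the mitochondrial chromosome, so the genes of origin were not analysed here.

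By gene of origin, 9 members came from the 16S ribosomal RNA and 23 from messenger RNA genes: 10 from complex I (NADH dehydrogenase), 2 from cytochrome b of complex III, 8 from complex IV (cytochrome c oxidase) and 3 from ATP synthase. They stood at 18 places. An insertion on chromosome 1 held 7 of them in the mitochondrial order (MTND1P23, MTND2P28, MTCO1P12, MTCO2P12, MTATP8P1, MTATP6P1 and MTCO3P12, GRCh38, 629062 to 634922, plus strand). Another, on chromosome 5 between 134923303 and 134928527, held 6 (MTCYBP18, MTND6P4, MTND5P11, MTND4P12, MTND4LP30 and MTND3P25) within the span of PCBD2, a gene at 1.48 ± 0.768 and 1.66 ± 0.276 FPKM (SD, n = 3 each). The authors' table types 17 members as processed and 8 as unprocessed pseudogenes and 7, all MTRNR2L genes, as protein coding. All 32 have a single exon in GENCODE release 29.

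Each member's transcript in GENCODE release 29 aligned best to its named gene of origin, on the same strand, in 32 of 32 cases. Identity over the aligned part ran from 78.8% (MTRNR2L3) to 99.2% (MTND1P23), with a median of 88.5% among 16S copies and 95.0% among messenger RNA copies. MTRNR2L8, MTRNR2L1, MTRNR2L10 and MTRNR2L3 have longer models in that release than in the table (1530 against 1051 bases for MTRNR2L10). Their identities therefore take in bases outside the length used for FPKM. The stretch of the 16S gene that holds the humanin frame is shown first because 3 of the copies with it, MTRNR2L8, MTRNR2L1 and MTRNR2L6, passed the test described below. Bases are written 5′ to 3′ on the transcribed strand, and capitals mark bases that differ from the mitochondrial gene.
MT-RNR2 (chrM:2633-2707): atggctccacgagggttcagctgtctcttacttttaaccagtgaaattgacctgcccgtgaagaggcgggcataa
MTRNR2L12 (chr3:96617199-96617273, minus): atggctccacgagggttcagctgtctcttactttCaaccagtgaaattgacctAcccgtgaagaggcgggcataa
MTRNR2L8 (chr11:10508152-10508226, minus): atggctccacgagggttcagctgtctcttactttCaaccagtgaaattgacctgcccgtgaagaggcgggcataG
MTRNR2L1 (chr17:22524062-22524136, plus): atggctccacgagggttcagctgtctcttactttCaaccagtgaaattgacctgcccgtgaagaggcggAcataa
MTRNR2L6 (chr7:142667231-142667305, plus): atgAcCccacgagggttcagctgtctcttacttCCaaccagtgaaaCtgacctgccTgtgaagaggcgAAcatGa
MTRNR2L9 (chr6:61574328-61574402, plus): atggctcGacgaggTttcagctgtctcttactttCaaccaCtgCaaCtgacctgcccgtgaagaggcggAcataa
MTRNR2L2 (chr5:80650022-80650086, minus): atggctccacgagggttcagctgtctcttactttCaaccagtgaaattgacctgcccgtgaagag

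These 75 bases are the whole annotated model of MTRNR2L9, and MTRNR2L2 (87 bases in the table) aligns over the first 65 of them. MTRNR2L12, MTRNR2L8 and MTRNR2L1 each differ from the mitochondrial gene at 2 of the 75 bases, MTRNR2L9 at 7 and MTRNR2L6 at 9. A model as short as that of MTRNR2L9 is shorter than the 150-base reads stated in the labels, so its level per length is high for few fragments (2446 to 8547 per library, against 171086 to 550095 for MTRNR2L12).

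Copies of messenger RNA genes are shown for 4 genes of origin that differed in direction between the groups. For the cytochrome c oxidase subunit CO1, for ND5 and for CO3 the 75 bases are those with the most differences in the chromosome 1 or chromosome 5 copy (for CO1, within the part that MTCO1P40 also holds), and for ND4L both copies are given over the same bases.
MT-CO1 (chrM:6864-6938): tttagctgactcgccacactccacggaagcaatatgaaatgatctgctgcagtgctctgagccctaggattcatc
MTCO1P12 (chr1:632035-632109, plus): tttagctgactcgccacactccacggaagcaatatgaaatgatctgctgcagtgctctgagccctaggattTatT
MTCO1P40 (chr17:53105779-53105853, plus): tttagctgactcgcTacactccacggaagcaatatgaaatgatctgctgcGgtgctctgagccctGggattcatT
MT-CO3 (chrM:9474-9548): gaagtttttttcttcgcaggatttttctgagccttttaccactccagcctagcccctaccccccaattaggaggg
MTCO3P12 (chr1:634643-634717, plus): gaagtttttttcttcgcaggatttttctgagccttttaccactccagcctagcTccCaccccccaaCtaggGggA
MT-ND5 (chrM:13702-13776): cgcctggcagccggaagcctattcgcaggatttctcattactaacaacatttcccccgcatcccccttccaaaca
MTND5P11 (chr5:134925020-134925094, minus): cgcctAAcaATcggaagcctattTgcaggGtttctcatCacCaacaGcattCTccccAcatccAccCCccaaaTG
MT-ND4L (chrM:10610-10684): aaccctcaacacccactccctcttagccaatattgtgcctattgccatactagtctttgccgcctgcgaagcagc
MTND4LP30 (chr5:134928112-134928186, minus): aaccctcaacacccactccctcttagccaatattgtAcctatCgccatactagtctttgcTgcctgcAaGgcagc
MTND4LP1 (chrX:126472735-126472809, plus): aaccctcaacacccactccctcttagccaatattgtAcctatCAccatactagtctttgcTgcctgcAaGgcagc

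Among messenger RNA copies the 7 of chromosome 1 have the highest identities to mitochondrial DNA. MTCO1P12 differs from MT-CO1 in 21 of 1543 aligned positions over the whole gene, and MTCO3P12 from MT-CO3 in 10 of 547. MTND5P11 differs from MT-ND5 in 127 of 1812. Of the 29 members long enough to hold a stretch of 150 bases, 3 (MTND1P23, MTND2P28 and MTCO1P12) share at least 1 such stretch exactly with a mitochondrial transcript, in 4.04%, 15.6% and 14.5% of their 150-base stretches. Shared stretches of that length with transcripts of another nuclear gene were found for MTCO2P12 and MTCO2P2, which share 23 with each other. The deposited values also include parts of fragments, which counters produce when they share a fragment among matching genes: 29 of 192 member values (15.1%) were whole after rounding to 0.01 fragments, against 46.9% of the values of all tested genes. Values with many fragments are less often whole, and that part of the difference was not tested. Whether a fragment counted for a copy came from that copy or from a mitochondrial transcript was not tested.

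Mean levels ranged from 1.06 FPKM for MTND4P35 to 9682 FPKM for MTRNR2L12 over the 6 libraries, with 17 members above 100 FPKM and 9 below 10 FPKM. MTRNR2L12 alone took between 0.836% and 1.27% of the depth of a library, as recovered in fragments from the FPKM values. Which fragments that depth counts was not checked. All members together took 2.45% ± 0.273 in control vector and 1.98% ± 0.0922 in labelled overexpression libraries (SD, n = 3 each). A fall of this size was not particular to them. The ratio of labelled overexpression to control vector in mean summed FPKM was 0.813 for the members and 0.807 for the 1145 other tested pseudogenes. Summed over all genes of the table, FPKM was 381310 to 400215 in control vector libraries. In labelled overexpression libraries that sum was lower, at 349703 to 365333, and these 2 ratios were not rescaled for it. Within each kind of copy, those closer to the mitochondrial sequence tended to be higher, with a Spearman rho of 0.83 between identity and mean FPKM across the 23 messenger RNA copies and 0.62 across the 9 copies of the 16S gene, but 0.50 across all 32. These points share libraries, length scaling and, on chromosomes 1 and 5, an insertion, and the values are a description. For 4 of the 16S copies, identity and FPKM also rest on models of different length. MTRNR2L2, with 98.5% identity over 65 aligned bases and 5.08 FPKM, lay far from the others, and its level rests on 9 to 26 fragments per library.

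**Figure D1:**
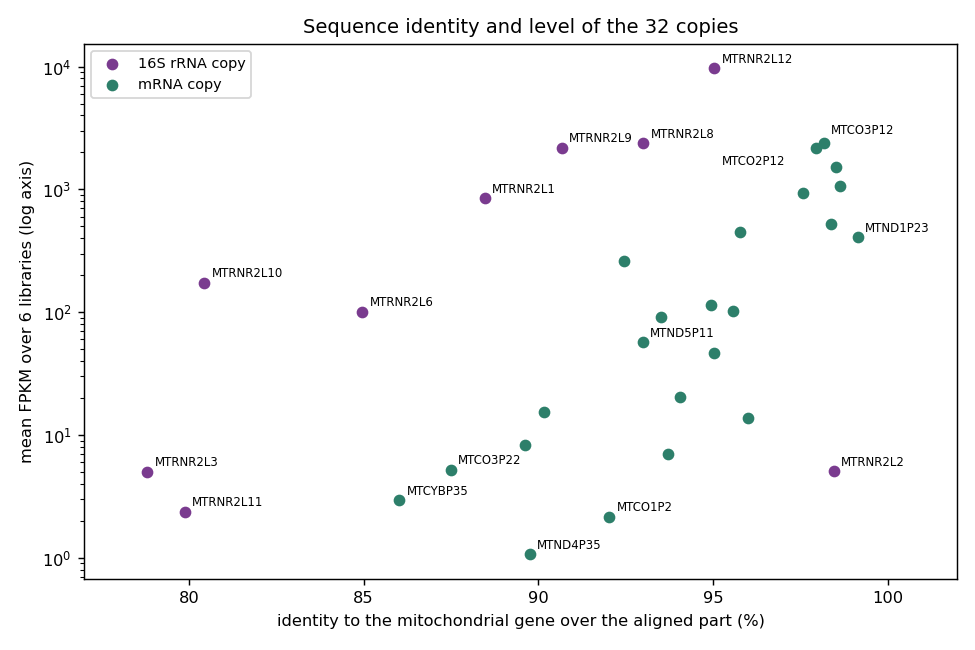
Identity of each copy to its mitochondrial gene (x axis, percent over the aligned part) against its mean FPKM over the 6 libraries (y axis, log scale), 1 point per copy, 16S copies in purple and messenger RNA copies in green. The chromosome 1 copies lie at the upper right, and MTRNR2L2, at 98.5% and 5.08 FPKM, lies apart.

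The groups were compared with limma-trend on log2(FPKM + 0.5) over all 13984 tested genes with Benjamini-Hochberg adjustment, and fold changes below are labelled overexpression minus control vector on that scale, which understates changes of low genes. These are shares of each library's RNA, so fewer cells with a transcript and less of it per cell cannot be told apart. Of the 32 members 3 passed an adjusted p of 0.05, all lower and all copies of the 16S gene (MTRNR2L8, MTRNR2L1 and MTRNR2L6). Over all tested genes 1.14% passed, 0.608% as lower and 0.529% as higher, a split of 85 and 74 that became 52 and 181 after rescaling each library to the same total. No member passed as higher in limma-trend, where 3 members were higher and 9 lower at an unadjusted p under 0.05 (17.7% of all tested genes either way), and none in limma-voom on recovered fragments, which called MTRNR2L1 and MTRNR2L8. In 12 members the groups did not overlap, as in 24.1% of all tested genes. Of these members 10 were lower and 2 higher, where 9.9% and 14.2% of all tested genes lay so. The median over the 32 members was 0.12, beside 0.05 over all tested genes. It was -0.53 over the 9 copies of the 16S gene and 0.15 over the 23 messenger RNA copies. Of these messenger RNA copies 16 were above 0 and 7 below, where 43.2% of all tested genes were below. None of the 23 passed in limma-trend (5 at an unadjusted p under 0.05). Without overlap lay 2 higher and 3 lower, beside 14.2% and 9.9% of all tested genes.

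Of the 9 copies of the 16S ribosomal RNA 8 had fold changes below 0, as did 43.2% of all tested genes, and 7 had all labelled overexpression libraries below all control vector libraries, against 9.9% of all tested genes that lay so. The copies come from 1 gene and share sequence, so they are not independent of each other. MTRNR2L12, the most abundant, stood at 9521, 12129.7 and 12079 FPKM in the control vector libraries, numbered 1 to 3, and at 8192, 7969 and 8204 FPKM in the labelled overexpression replicates. All 3 labelled overexpression libraries were lower and closer together than the controls, with a log2 fold change of -0.46 (SE 0.11) that did not pass (limma-trend, Benjamini-Hochberg adjusted p = 0.0815).

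MTRNR2L8, on chromosome 11 (10507894 to 10509186, minus strand), fell from 2479.6, 3019 and 2982 FPKM to 1982, 1844 and 2008 FPKM. Its log2 fold change was -0.53 (SE 0.10, limma-trend, Benjamini-Hochberg adjusted p = 0.0440). It overlaps the microRNA gene MIR4485 on the same strand, which had -0.54 without passing (limma-trend, Benjamini-Hochberg adjusted p = 0.102). MTRNR2L1, on chromosome 17 (22523415 to 22524663, plus strand), fell from 991, 1096 and 962 FPKM to 688, 727 and 605 FPKM. Every control was above every labelled overexpression library, and the log2 fold change was -0.60 (SE 0.10, limma-trend, Benjamini-Hochberg adjusted p = 0.0348). MTRNR2L6, on chromosome 7 (142666272 to 142667718, plus strand), fell from 136, 127 and 105 FPKM to 82.1, 82.7 and 70.6 FPKM, the largest fall among the members at -0.64 (SE 0.12, limma-trend, Benjamini-Hochberg adjusted p = 0.0445). MTRNR2L8 and MTRNR2L6 no longer passed with each library rescaled to the same total, at adjusted p of 0.0555 and 0.0542 in limma-trend, where MTRNR2L1 still did. Without the level rule, or without the trend, none of the 3 passed in limma, at adjusted p from 0.161 to 0.292.

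MTRNR2L10, a copy on the X chromosome that is only 80.4% identical to the 16S gene, stood at 212, 226 and 186 FPKM in control vector and 148, 165 and 109 FPKM in labelled overexpression libraries. The groups did not overlap, at -0.58 (SE 0.15), but the copy did not pass (limma-trend, Benjamini-Hochberg adjusted p = 0.103). MTRNR2L9 and MTRNR2L3 did not overlap either, at -0.54 and -0.47, while MTRNR2L11 overlapped at -0.41. MTRNR2L2 was the exception at 0.12 (SE 0.43), with 9.45 FPKM in labelled overexpression replicate 2 and 2.38 to 6.63 FPKM in the other libraries. The 8 copies below 0 lay between -0.64 and -0.41, with identities to the 16S gene from 78.8% (MTRNR2L3) to 95.0% (MTRNR2L12). Fold changes of -0.4 or lower were found in 7.34% of all tested genes.

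Summed over the 9 copies, 16S copies held 15596, 19542 and 18949 FPKM in control vector and 13039, 12397 and 12828 FPKM in labelled overexpression libraries. The sums do not overlap and their means, 18029 ± 2128 and 12754 ± 327 (SD, n = 3 each), give a ratio of 0.707. Summed over the 23 messenger RNA copies the values were 9296, 11692 and 9565 FPKM and 9759.6, 12178 and 8641 FPKM. There the groups overlap and the means, 10184 ± 1313 and 10193 ± 1808 (SD, n = 3 each), have a ratio of 1.00. Neither ratio was rescaled for the lower summed FPKM of all genes in labelled overexpression libraries.

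**Figure D2:**
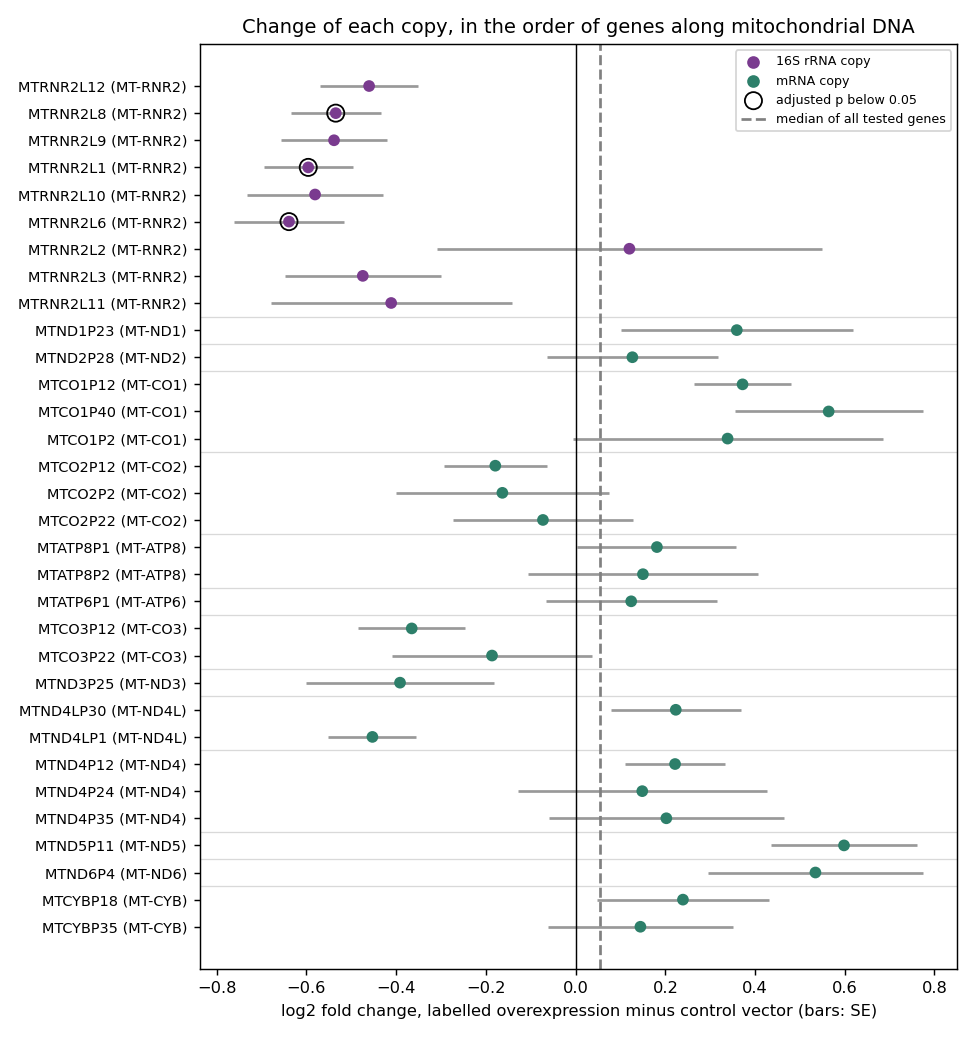
Log2 fold change of each copy (x axis, labelled overexpression minus control vector, bars 1 SE), grouped by gene of origin in the order of mitochondrial DNA (y axis), with 16S copies in purple, messenger RNA copies in green and the median of all tested genes as a dashed line. Of the 9 copies of the 16S gene 8 lie left of 0, 3 of them circled for an adjusted p below 0.05, and 16 of 23 messenger RNA copies lie right of 0.

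Among copies of complex I genes, 8 of 10 had fold changes above 0 and 2 below, where 43.2% of all tested genes were below. None of the 10 passed in limma-trend, with MTND5P11 and MTND4LP1 the 2 at an unadjusted p under 0.05. ND1 and ND2 are membrane subunits of the complex. MTND1P23 (chromosome 1, 629062 to 629433) stood at 299, 422 and 324 FPKM in control vector and 428, 685 and 294 FPKM in labelled overexpression libraries, and MTND2P28 (629640 to 630683) at 417, 585 and 489 against 494, 731 and 429 FPKM. Both overlapped, with replicate 3 of the labelled overexpression libraries among the lowest and replicate 2 the highest, and fold changes of 0.36 (SE 0.26) and 0.13 (SE 0.19).

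ND4, ND4L and ND5 are also membrane subunits, and the highest copy of each, like that of ND6, lies in the chromosome 5 insertion of 6 members. MTND4P12 (chromosome 5, 134926660 to 134928036, minus strand) had 387, 471 and 386 FPKM in control vector and 470.1, 534 and 443 FPKM in labelled overexpression libraries, at 0.22 (SE 0.11). MTND5P11 (134924648 to 134926459, minus strand) had 38.7, 52.6 and 44.0 FPKM against 68.5, 82.6 and 55.6 FPKM. Its groups did not overlap, and its fold change of 0.60 (SE 0.16) was the largest above 0 among the members without passing (limma-trend, Benjamini-Hochberg adjusted p = 0.112). MTND6P4 (134924123 to 134924644, plus strand), a copy of the gene on the other strand of mitochondrial DNA, had 33.0, 48.3 and 31.2 FPKM against 54.9, 74.1 and 37.5 FPKM. These overlapped, at 0.53 (SE 0.24, limma-trend, Benjamini-Hochberg adjusted p = 0.283).

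MTND3P25, 135 bases on the same insertion, went the other way at 10.4, 8.67 and 8.96 FPKM against 8.48, 8.14 and 4.91 FPKM, without overlap and at -0.39 (SE 0.21, limma-trend, Benjamini-Hochberg adjusted p = 0.364). It rested on 22.5 to 63.5 fragments per library. The 2 copies of ND4L differed in direction although they differ from the mitochondrial gene at only 5 and 6 of the 75 bases shown. MTND4LP30 on chromosome 5 had 107, 119 and 90.5 FPKM in control vector and 114, 149 and 108 FPKM in labelled overexpression libraries, at 0.22 (SE 0.15), and it overlaps MTND4P12 by a few bases on the same strand. MTND4LP1 on the X chromosome, chosen for this comparison after its values were seen, had 105, 108 and 102 FPKM against 72.9, 84.0 and 73.3 FPKM, at -0.45 (SE 0.10, limma-trend, Benjamini-Hochberg adjusted p = 0.0628). MTND4LP1 passed in 2 of 14 alternatives, with median-of-ratios scaling and with the replicate block (limma-trend, adjusted p = 0.0472 and 0.0497). In limma-voom its adjusted p was 0.268. The copy has 157 bases and rested on 270 to 742 fragments per library. The ratio of MTND4LP1 to MTND4LP30 was 1.01 ± 0.114 in control vector and 0.628 ± 0.0590 in labelled overexpression libraries (SD, n = 3 each), without overlap, a description of a pair chosen for its difference.

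The 2 copies of cytochrome b, the electron-carrying core of complex III, were both above 0 and overlapped. MTCYBP18 (chromosome 5, 134923303 to 134924049, minus strand) had 199.6, 303 and 219 FPKM in control vector and 273, 360.3 and 222 FPKM in labelled overexpression libraries, at 0.24 (SE 0.19), and MTCYBP35 had 0.14.

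Among copies of cytochrome c oxidase genes, all 3 copies of CO1, the catalytic subunit, were above 0, all 3 of CO2 and both of CO3 below 0, and 0 of the 8 passed in limma-trend, with MTCO1P12, MTCO1P40 and MTCO3P12 at an unadjusted p under 0.05. MTCO1P12 (chromosome 1, 631074 to 632616) stood at 819, 1063 and 892 FPKM in control vector and 1133, 1191 and 1247 FPKM in labelled overexpression libraries. All 3 labelled overexpression libraries were higher, which held for 14.2% of all tested genes, at 0.37 (SE 0.11, limma-trend, Benjamini-Hochberg adjusted p = 0.131). With each library rescaled to the same total, MTCO1P12 passed as higher at 0.48 (limma-trend, Benjamini-Hochberg adjusted p = 0.0447), and there the median of all tested genes moved from 0.05 to 0.15. A microRNA gene without a symbol (ENSG00000278791) lies over MTCO1P12 on the other strand and had 0.46, and the pseudogene RP11-206L10.17, which overlaps all 7 members there on the other strand, had -0.10. The sources do not say whether counting used the strand. Whether overlapping genes were counted from the same fragments was not tested. MTCO1P40, on chromosome 17 (53105734 to 53106358), had 9.41, 14.1 and 9.70 FPKM against 15.9, 21.1 and 12.9 FPKM, at 0.56 (SE 0.21), with replicate 3 of the labelled overexpression libraries below control vector replicate 2.

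MTCO2P12 and MTCO3P12 lie on the chromosome 1 insertion that holds MTCO1P12, with MTATP8P1 and MTATP6P1 between them. MTCO2P12 (632757 to 633438) had 2107, 2582 and 2196 FPKM in control vector and 1957, 2297 and 1831 FPKM in labelled overexpression libraries, with overlap, at -0.18 (SE 0.12). MTCO3P12 (634376 to 634922) had 2527, 2962 and 2549.8 FPKM against 2079, 2392 and 1795 FPKM. All 3 labelled overexpression libraries were below all controls, at -0.37 (SE 0.12), and the copy did not pass (limma-trend, Benjamini-Hochberg adjusted p = 0.165). The ratio of MTCO1P12 to MTCO3P12, copies on the same insertion, was 0.324, 0.359 and 0.350 in control vector and 0.545, 0.498 and 0.695 in labelled overexpression libraries, which follows from their directions. The ratio of MTRNR2L12 to MTCO1P12 lay between 11.4 and 13.5 in control vector and between 6.58 and 7.23 in labelled overexpression libraries, which likewise follows from the 2 directions. These ratios were chosen after the values were seen and are descriptions, with no test.

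ATP6 and ATP8, subunits of the membrane part of ATP synthase, overlap on mitochondrial DNA and on chromosome 1, so fragments of their copies cannot be told apart there. MTATP6P1 (633696 to 634376) had 1287, 1735 and 1298 FPKM in control vector and 1514, 2079 and 1192 FPKM in labelled overexpression libraries, at 0.12 (SE 0.19). MTATP8P1 (633535 to 633741) had 771, 1037 and 808 FPKM against 928, 1292 and 786 FPKM, at 0.18 (SE 0.18). The groups overlapped in both, and replicate 2 was the highest library of each group. The chromosome 2 copy MTATP8P2, also picked after its values were seen, was 0.0216 ± 0.00209 of MTATP8P1 in control vector and 0.0212 ± 0.00249 in labelled overexpression libraries (SD, n = 3 each).

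**Figure D3:**
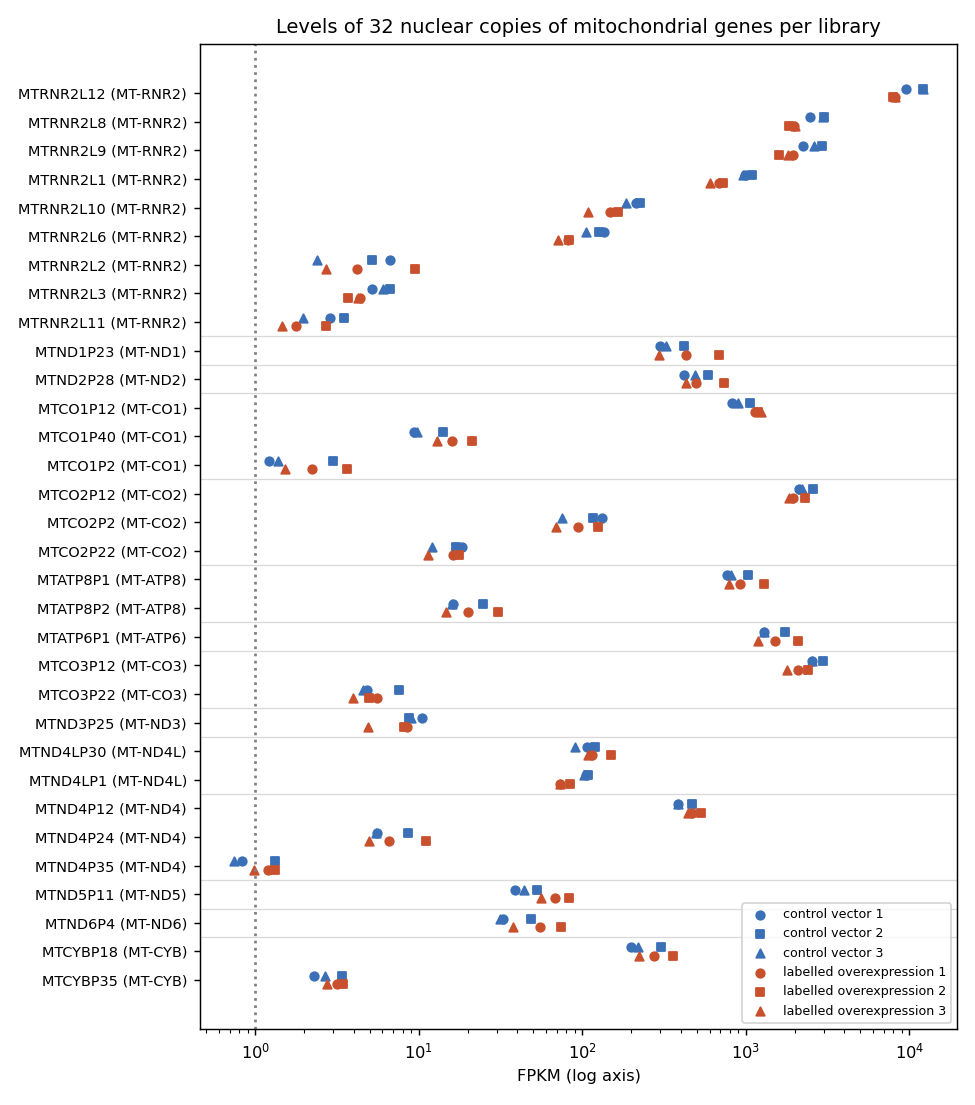
FPKM of each of the 32 copies (x axis, log scale, dotted line at the level of 1 FPKM) in every library, with control vector in blue and labelled overexpression in orange and replicates 1, 2 and 3 as circles, squares and triangles. The 16S copies at the top, other than MTRNR2L2 and MTRNR2L11, have every orange point left of every blue one, while in most messenger RNA copies the squares of both groups lie farthest right.

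Messenger RNA copies shared an order of libraries within the groups. In 20 of 23 such copies control vector replicate 2 was the highest control, in 20 of 23 labelled overexpression replicate 2 was the highest of its group, and in 21 of 23 labelled overexpression replicate 3 was the lowest. Measured as the median deviation from each copy's mean on the log2 scale, they stood at -0.26, 0.19 and -0.23 in control vector and 0.08, 0.39 and -0.26 in labelled overexpression libraries. The 16S copies stood at 0.26, 0.40 and 0.22 and at -0.22, -0.24 and -0.45, so in them the groups separated. All tested genes had medians between -0.02 and 0.04. Replicate 2 was the shallowest library of each group, at 29048596 and 20466583 fragments beside 27525077 to 48996425 in the other libraries, and the part of depth in these levels was not tested.

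**Figure D4:**
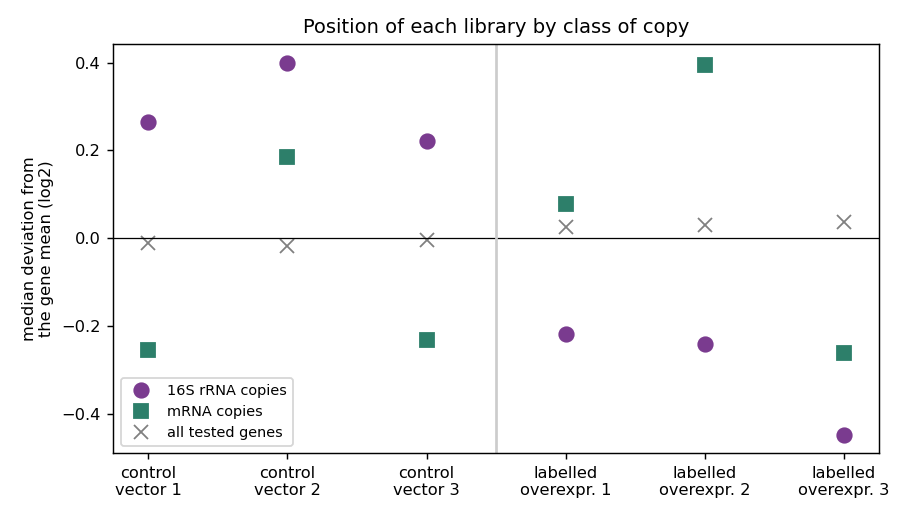
Median deviation from each gene's own mean (y axis, log2 scale) in each of the 6 libraries (x axis) for the 9 copies of the 16S gene, the 23 messenger RNA copies and all tested genes. The 16S copies are above 0 in the 3 control vector libraries and below 0 in the 3 labelled overexpression libraries, and the messenger RNA copies are highest in replicate 2 of both groups.

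The calls depended on single libraries. Leaving out control vector replicate 3 kept MTRNR2L1 and MTRNR2L6, and leaving out any other library left 0 members past the threshold in limma-trend. In those other fits 11 to 15 members had an unadjusted p under 0.05, as did 1664 to 2303 of 13984 tested genes. The loss was not limited to members. Genes called fell from 159 to 124 without control vector replicate 3 and to 3 without control vector replicate 1. They fell to 0 without control vector replicate 2 or labelled overexpression replicate 1. The direction held: 8 or 9 of the 9 copies of the 16S gene were below 0 in each of the 14 alternatives, which all reuse the same 6 libraries. The median over all members was -0.17 without labelled overexpression replicate 2 and -0.08 without control vector replicate 3, so it had no stable sign. MTND2P28, MTATP6P1, MTATP8P1, MTATP8P2, MTND4P24 and MTRNR2L2 were below 0 without labelled overexpression replicate 2.

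Genes of the nucleus that make the partner subunits of the same complexes were read beside the copies. Of 37 nuclear subunits of complex I 0 passed in limma-trend (10 at an unadjusted p under 0.05), and the median was -0.19, beside 0.21 for the copies of complex I genes. Of these subunits 31 were below 0, as were 43.2% of all tested genes, and the groups lay without overlap lower in 11 and higher in 2, against 9.9% and 14.2% of all tested genes. NDUFB7 and NDUFA2, the members of smallest p, had 293 ± 27.7 and 76.5 ± 5.72 FPKM in control vector and 213 ± 28.7 and 58.4 ± 3.58 FPKM in overexpression-labelled ones (SD, n = 3 each). For complex IV all 11 nuclear subunits were below 0 at a median of -0.28 and 8 lay without overlap lower, with COX6A1 at 558 ± 36.8 against 425 ± 11.4 FPKM (SD, n = 3 each) and COX7A2 at -0.38. Without overlap lower were also 4 of 9 genes of complex III and 8 of 15 of ATP synthase. Complex III had a median of -0.15 over 9 genes, with UQCR11 and CYC1 at -0.37 and -0.35, and ATP synthase -0.16 over 15, with ATP5F1C and ATP5MC3 at -0.43 and -0.28. In these lists 0 genes passed in limma-trend, with 7, 4 and 4 at an unadjusted p under 0.05. The medians of the nuclear genes of complexes I, III and IV and of ATP synthase were -0.081, -0.043, -0.17 and -0.053 with each library rescaled to the same total. Without that rescaling, the copies had medians of 0.19 for complex III, -0.12 for complex IV and 0.15 for ATP synthase. Copies and nuclear genes of complex IV thus had medians of the same sign.

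The machinery that transcribes and keeps mitochondrial DNA was listed with 14 genes, among them the polymerase POLRMT and the packaging factor TFAM. None passed in limma-trend and 0 had an unadjusted p under 0.05, with a median of 0.09, and the genes of smallest p, MTERF3 and MGME1, had -0.36 and 0.36. Of 17 genes found for processing and decay of mitochondrial RNA 0 passed (1 at an unadjusted p under 0.05), with a median of -0.08. GRSF1, which binds G-rich RNA in mitochondrial RNA granules, stood at 6.42, 8.42 and 9.80 FPKM in control vector and 12.9, 12.2 and 13.1 FPKM in labelled overexpression libraries. Its groups did not overlap, at 0.62 (SE 0.17, limma-trend, Benjamini-Hochberg adjusted p = 0.113), and TBRG4 had -0.21. Of 5 tested regulators of mitochondrial biogenesis 0 passed (1 at an unadjusted p under 0.05), with ESRRA, a nuclear receptor, at 41.3 ± 3.55 against 30.1 ± 1.17 FPKM (SD, n = 3 each) and NRF1 at 0.12. Other pseudogenes of the table, 1145 tested, had a median of -0.10, with 4 higher and 19 lower past the threshold. Over all tested genes 0.529% passed as higher and 0.608% as lower. Of these 1145 pseudogenes 709 were below 0, where 43.2% of all tested genes were below. In 185 of the 1145 the groups lay without overlap lower and in 75 higher, beside 9.9% and 14.2% of all tested genes.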

How the data were processed

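Per the labels' protocols, total RNA was isolated with a column kit and libraries were made with a SMART-seq kit and read as paired ends of 150 bases. Of tools, featureCounts 2.0.1 and STAR 2.7.9 appear in the submitters' processing notes, with hg38 and GRCh38.p13 as builds. Their options are not given in the sources used here. Values were deposited as FPKM, beside each gene's length and position, per the file headers. FPKM multiplied by length gave every library's values as multiples of 0.01 fragments (tolerance 0.001, up to 1000 fragments), and the depth recovered was 20466583 to 48996425 fragments.

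Genes at 1 FPKM or more in at least 3 of 6 libraries were fitted by limma-trend (limma 3.58.1, R 4.3.3) after adding 0.5 FPKM and taking log2, with Benjamini-Hochberg adjustment at 0.05, a fit tested on simulated data. Alternatives were other pseudocounts, no filter, other scalings, no trend, a replicate block, limma-voom on recovered fragments and leaving out each library. Members, lists and rules were chosen with earlier results of these data known. The text names the highest copy of each gene of origin, all copies past the threshold, the 3 largest changes in each direction and the 2 genes of smallest p of each list. Sequences are GENCODE release 29 transcripts on GRCh38, aligned with blastn 2.17.0. Of the 32 members 28 had the same start and end there as in the table, and 4 MTRNR2L genes had longer models there.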

Additional observations from a re-analysis of the deposited data

How the results depend on the processing

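Genes and copies past the threshold varied most. As reported there were 159 genes (74 higher, 85 lower) and 3 copies, all lower. With any library left out the genes ranged from 0 to 124 (0 to 73 higher, 0 to 51 lower), the copies lower from 0 to 2, and the copies' median from -0.17 to 0.25. Without a filter on low values, and likewise without the trend, 0 genes, 0 higher and 0 lower, and 0 copies passed in limma (9 and 11 copies at an unadjusted p under 0.05, and 3538 and 2304 genes). A common total per library gave 181 genes higher and 52 lower, 1 copy higher (MTCO1P12) and 1 lower (MTRNR2L1), and medians of -0.081, -0.17 and -0.053 for nuclear genes of complex I, complex IV and ATP synthase. Limma-voom gave 48 genes lower and 2 copies lower. The complex I median ranged from -0.24 to -0.11 with a library left out. The cause of these changes was not tested. Same-numbered libraries deviated together at r = -0.0235, 0.105 and 0.119 for numbers 1, 2 and 3, so the numbers were not taken as pairs. The replicate block gave 131 genes lower and 5 copies lower, adding MTRNR2L10 and MTND4LP1. Median-of-ratios scaling gave 59 genes higher and 119 lower, and 4 copies lower, adding MTND4LP1. Copies with under 100 fragments in a library, such as MTRNR2L2 and MTND3P25, are limited by depth.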
